A study of Mus musculus with 9 samples.

Results

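The data compared here were RNA levels of primary mouse microglia 24 h after they had been given apoptotic cells (Ph24h, 3 arrays) and of naive microglia (control, time 0 h, 3 arrays), 6 of the 9 arrays of the series. The members were taken from the sample titles, and the late state was described across all genes that the array measured. The other 3 arrays hold microglia 3 h after feeding (Ph3h) and serve here for the common estimate of the spread and to place the late state in time. Within a group, each array stands for 1 independent experiment. Whether arrays of different groups came from the same experiments could not be settled.

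All groups were grown alike. The microglia came from brains of fms-EGFP pups at postnatal day 0 to 1, without olfactory bulb and cerebellum, and were kept in culture for about 14 d with GM-CSF at 5 ng/ml. In these mice the promoter of the Csf1r (c-fms) gene drives EGFP, so that microglia and other cells of the macrophage lineage fluoresce, and control cells carry the transgene too. Several brains went into a culture, and a value is therefore that of a mixed culture and not of an animal. The food was SH-SY5Y, a line grown from a human neuroblastoma, labelled with the membrane dye CM-DiI at 5 μM and driven into apoptosis with staurosporine at 3 μM for 4 h. The floating, dead fraction was added to the microglia at about 1 cell per microglia. An unfed culture from 24 h was not among the arrays, so feeding and 24 h of further culture cannot be told apart, and the meal came from another species.

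Microglia are the resident macrophages of the brain. They recognise dying cells through receptors for exposed phosphatidylserine and for its bridging proteins, enclose them, and digest them in lysosomes, which leaves the phagocyte with a load of lipid, cholesterol, amino acids and nucleotides. Macrophages that meet danger signals also switch on secreted chemokines, cytokines and proteases, and activation of these cells is often accompanied by more glycolysis and less oxidation of fat in mitochondria.

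Levels are given on a log2 scale relative to the 75th percentile of the same array, so that a gene at 0 lies at that percentile and each unit is a factor of 2. Differences between groups are log2 differences, 24 h minus control, with the standard error of the fit (n = 3 arrays per group). A gene was called when the adjusted p of limma, with the Benjamini-Hochberg method over 24,101 genes, was below 0.05, and "rose" and "fell" are used of called genes only. Where no array of a group put a gene's probe well above background, the gene is called dim in that group, and its change is given as "at least N-fold" against the lowest signal that counted as well above background on those arrays. The 75th percentile of the raw intensity was 473, 412 and 356 on the control arrays and 157, 156 and 161 on the Ph24h arrays, so the same background reaches higher on the relative scale at 24 h. Between 26,061 and 29,286 probes per array of the 2 groups were well above background, and no spot was saturated. The arrays cannot separate fewer cells of a kind from less RNA per cell.

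The late state differed widely from control. At 24 h, 7210 genes rose (29.9% of those tested) and 7990 fell (33.2%). Leaving aside the 617 genes that were dim in both groups, the counts were 7098 of 23,484 genes higher (30.2%) and 7988 lower (34.0%), and the median difference over these genes was -0.018. The rises were the larger changes. Among genes above background in both groups, the median rise was 1.92-fold (6020 genes) and the median fall 1.53-fold (7359 genes). Rises of at least 4-fold numbered 713 and falls 172, while rises of at least 16-fold numbered 144 and falls 2. A further 310 genes that were dim in control rose by a bound of at least 4-fold, and 28 that were dim at 24 h fell by as much.

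**Figure D1:**
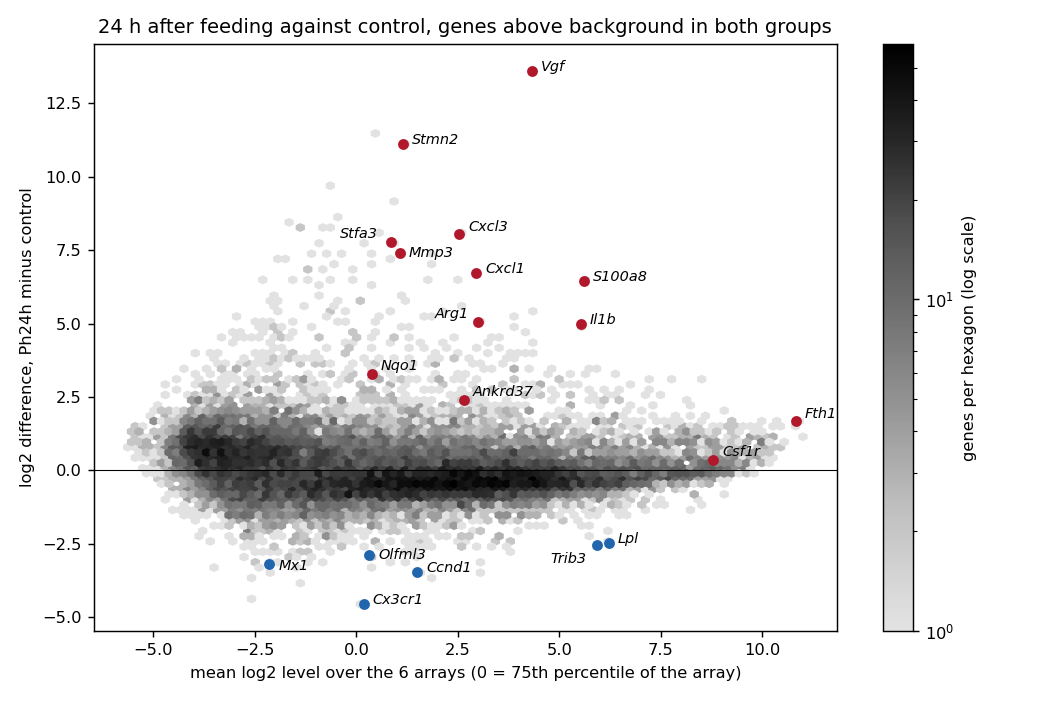
Log2 difference of Ph24h minus control (vertical axis) against the mean log2 level over the 6 arrays (horizontal axis, 0 at the 75th percentile of the array), for the 19256 genes above background in both groups. Grey hexagons count genes on a log scale, red points mark named genes that rose and blue points named genes that fell. The rises reach 13.6 (Vgf), and the lowest named fall is Cx3cr1 at -4.56.

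The direction of the calls moved with brightness. With the genes in 4 equal groups by level, 26.5% rose and 10.6% fell in the dimmest group, while in the 2 brightest groups 27.3% and 29.1% rose and 51.2% and 46.1% fell. The scaling of the arrays moved the balance as well. The share of rises among called genes was 47.4% as given above, 40.1% with quantile normalization, 23.9% with each array set to its median, and 65.0% without a filter on dim probes. Relative to the values reported here, quantile normalization shifted the median difference by -0.14 and median scaling by -0.51. Small differences, below about 0.5 in size, are therefore read here only against the median of all genes, and groups of genes whose direction turned under another scaling are named as such. The gene lists below were not matched to genes of like brightness, and many hold bright genes. Falls made up 53.8% of the disease-associated list, 53.3% of the MHC class I list and 47.8% of the TCA cycle list. They made up 63.0% of the engulfment list and 66.7% of the lysosome list.

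**Figure D2:**
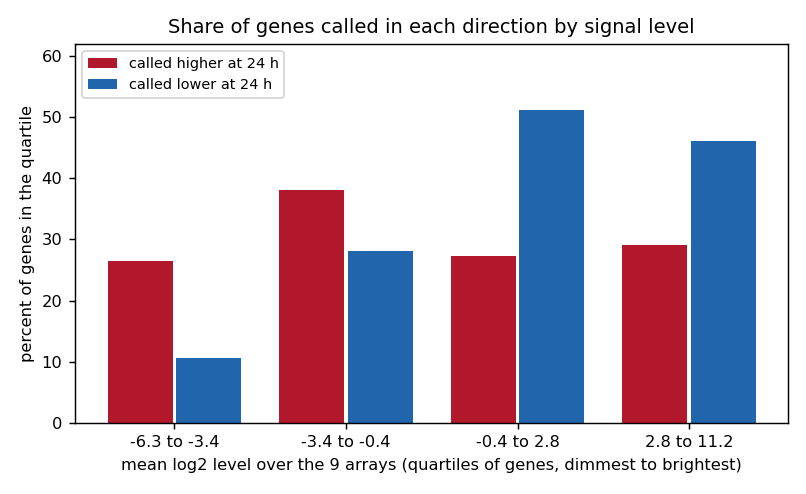
Percent of genes called higher (red) and lower (blue) at 24 h against control, in 4 equal groups of 5871 genes ordered by mean log2 level over the 9 arrays (horizontal axis, ranges of the level). Falls are rare among the dimmest genes (10.6%) and outnumber rises in the brighter groups (51.2% and 46.1% lower).

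Most microglia markers were still above background at 24 h, and most were lower. All 10 microglia markers were above background on every control array, and 9 of the 10 at 24 h. The summed signal of the 10, in units of the 75th percentile, was 1004 to 1071 on the control arrays and 952 to 1002 on the Ph24h arrays, but without Csf1r the sum was 618 to 680 in control and 440 to 514 at 24 h. Csf1r, the receptor for the growth factors CSF-1 and IL-34, stood at 8.59, 8.62 and 8.61 in control and at 9.00, 8.97 and 8.93 at 24 h. Its rise of 0.36 (standard error 0.059, adjusted p = 0.0013) turned to -0.15 under median scaling, and was 0.035 with quantile normalization and 0.033 in the deposited log2 table, each without a call. Siglech, a sialic acid-binding receptor, differed by 0.09 (standard error 0.15, adjusted p = 0.64), and the arrays of the groups overlapped. Its other probe rose by 1.19. With the mean over probes the gene was called higher at 0.64, and under median scaling it was called lower at -0.42. Itgam, the CD11b subunit of complement receptor 3, rose by 1.23 (adjusted p = 4.6e-05). The other 7 markers fell. Among them Aif1, the actin-binding protein Iba1, fell by 0.73, C1qa of the complement system by 0.71, the Fc receptor-like Fcrls by 0.58 and Tmem119, a membrane protein used to mark microglia, by 0.41, with no call on slide 1 alone (-0.36). P2ry12, the ADP receptor that steers microglial processes, lay at -3.72, -3.73 and -3.99 in control and was dim on all 3 Ph24h arrays, so that its fall has a bound of only 1.03-fold.

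Cx3cr1, the receptor for the neuronal chemokine fractalkine, was the marker with the largest fall. Its level was 2.61, 2.32 and 2.42 on the control arrays and -2.40, -2.09 and -1.82 on the Ph24h arrays. Every Ph24h array lay more than 4 units below every control array. It fell by 4.56 on the log2 scale, 23.5-fold (standard error 0.18, adjusted p = 1.1e-06), and the 2 other probes of the gene fell by 4.55 and 4.68. At 3 h the difference had been -0.84.

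The wider list of homeostatic microglia genes behaved likewise. Of 27 measured members 16 fell, 3 rose (Itgam, Csf1r and Rhob) and 8 were not called, with a median of -0.59 beside -0.018 over all genes. Olfml3, a secreted matrix protein, went from 1.83, 1.74 and 1.71 to -1.05, -1.01 and -1.30. The groups did not overlap, and the fall was 2.88 (standard error 0.13, adjusted p = 2.2e-06). Genes known from microglia around plaques and lesions, the disease-associated list, were not raised as a group. Of 26 members 14 fell and 7 rose, with a median of -0.35. Lpl, the lipoprotein lipase of that list, stood at 7.43, 7.47 and 7.47 in control, at 7.94, 7.93 and 7.98 at 3 h and at 5.00, 4.93 and 5.03 at 24 h. Its 24 h arrays lay below all others, with a fall of 2.47 against control (standard error 0.051, adjusted p = 5.7e-08). Fth1, the heavy chain of the iron store ferritin, rose by 1.67 (adjusted p = 2.6e-05).

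Most measured genes of engulfment and digestion fell, as did many bright genes of any kind. Over all genes 34.0% fell and 30.2% rose, with a median of -0.018. In the 2 brightest groups of genes 51.2% and 46.1% fell, with medians of -0.25 and -0.15. The lists were not matched for brightness. Of 27 measured receptors, bridging proteins and engulfment genes 17 fell and 6 rose, with a median of -0.41. Axl, a TAM receptor kinase that binds phosphatidylserine through Gas6, went from 2.54, 2.27 and 2.24 to 0.55, 0.48 and 0.46, a fall of 1.85 (standard error 0.099, adjusted p = 4.4e-06). Itgb3, the beta 3 integrin chain, fell by 2.56 and by 0.98 on its other probe. Among the rises, Thbs1, the secreted thrombospondin 1 that bridges dying cells to macrophages, rose by 3.01 (adjusted p = 2e-07). Bai1, a phosphatidylserine receptor that is also a gene of neurons, rose by 7.28 on its brightest probe, which 1 of 3 control arrays put above background, and differed by 1.48 on another. Of 39 lysosomal genes 26 fell and 4 rose, with a median of -0.39 that ranged from -0.90 to -0.36 over the alternatives. Atp6v0d2, a subunit of the proton pump that acidifies lysosomes, fell by 1.66, from 4.50, 4.32 and 4.38 to 2.70, 2.81 and 2.71 (standard error 0.086, adjusted p = 3.9e-06). Nr1h3, the sterol sensor LXR alpha, fell by 1.37 on that probe and by 1.25 on another.

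Secreted signals were among the large rises. In the CXC chemokine list, 8 of 12 measured members rose and 2 fell, with a median of 1.78 (1.41 with dim genes at their bounds), which was 0.26 with normexp and quantile normalization. Cxcl3, a chemokine that draws neutrophils through the receptor CXCR2, stood at -1.34, -1.65 and -1.49 in control, 1.24, 1.17 and 1.35 at 3 h and 6.44, 6.77 and 6.45 at 24 h. The 3 groups formed separate steps. Its rise at 24 h was 264-fold, or 8.05 on the log2 scale (standard error 0.12, adjusted p = 1.2e-08). Cxcl1, of the same family and chromosome region, stepped from -0.62, -0.31 and -0.28 through 3.53, 3.65 and 3.44 to 6.13, 6.54 and 6.27, a rise of 6.72 (standard error 0.14, adjusted p = 5.1e-08). Cxcl10, the interferon-induced chemokine that draws T cells through CXCR3, went the other way. It had risen by 2.09 at 3 h and then lay at -1.41, -2.09 and -1.46 at 24 h, below its control arrays at 0.16, -0.0049 and 0.08, a fall of 1.73 (standard error 0.20, adjusted p = 0.0002). Of 13 CC chemokines and receptors 7 rose and 3 fell, with a median of 0.77, among them Ccl5, which draws T cells and monocytes, with a rise of 2.45 (adjusted p = 8.7e-07).

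For Cxcl1 and Cxcl3, the 120 bases before their starts of transcription are shown here from RefSeq (mouse build GRCm38.p6). The pair was picked after the promoters of named genes had been searched for motifs, so the shared motif follows from that choice. The part of the motif in the rises was not tested. Capitals mark a 10-letter form of the NF-kB motif, the same in both, which begins 71 bases before the start of Cxcl1 (chr5:90891125-90891244, plus strand) and 73 bases before that of Cxcl3 (chr5:90785981-90786100, plus strand). These letters occur on either strand in 0.0927% of the 11,871 promoters of genes measured here, in the 250 bases before the start. That share includes Cxcl1 and Cxcl3.
Cxcl1: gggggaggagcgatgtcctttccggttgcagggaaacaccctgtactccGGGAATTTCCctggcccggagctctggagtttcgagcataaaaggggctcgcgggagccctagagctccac
Cxcl3: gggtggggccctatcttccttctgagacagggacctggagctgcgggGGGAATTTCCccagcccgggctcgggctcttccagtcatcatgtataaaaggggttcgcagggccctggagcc

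Cytokines and the enzymes and sensors around them rose unevenly. Il1b, the precursor of interleukin-1 beta, lay at 3.16, 2.86 and 3.09 in control and at 7.90, 8.08 and 8.07 at 24 h. It rose by 4.98 (standard error 0.092, adjusted p = 3.5e-08). Il6 was at 1.65, 1.28 and 1.44 in control and at 1.49, 2.00 and 1.65 at 3 h, where the arrays of the groups overlapped. At 24 h it reached 5.41, 5.78 and 5.73, a rise of 4.18 (standard error 0.17, adjusted p = 1.1e-06). Csf3, which encodes the neutrophil growth factor G-CSF, was dim in control and lay at 2.41, 2.89 and 2.65 at 24 h. Its rise was at least 171-fold (adjusted p = 1.6e-06). Nlrp3, the sensor of an inflammasome that cleaves the IL-1 beta precursor, rose by 4.50, with 2 of 3 control arrays above background, and by 4.33 on its other probe. Il10, a cytokine that restrains inflammation, had risen by 1.14 at 3 h and fell by 2.26 against control at 24 h (adjusted p = 5.8e-06), when 1 of 3 arrays was above background. Over whole lists the directions were mixed. Of 16 genes of the IL-1 system 6 rose and 7 fell, and of 14 genes of the IL-6, IL-10 and IL-12 families 7 rose and 5 fell, with a median of 0.34 that turned to -0.17 under median scaling. Of 22 genes of TNF signalling and NF-kB feedback 12 rose and 4 fell, with a median of 0.33 that turned to -0.18 under median scaling. Tnfaip3, the feedback inhibitor A20, rose by 1.77 after 2.65 at 3 h.

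**Figure D3:**
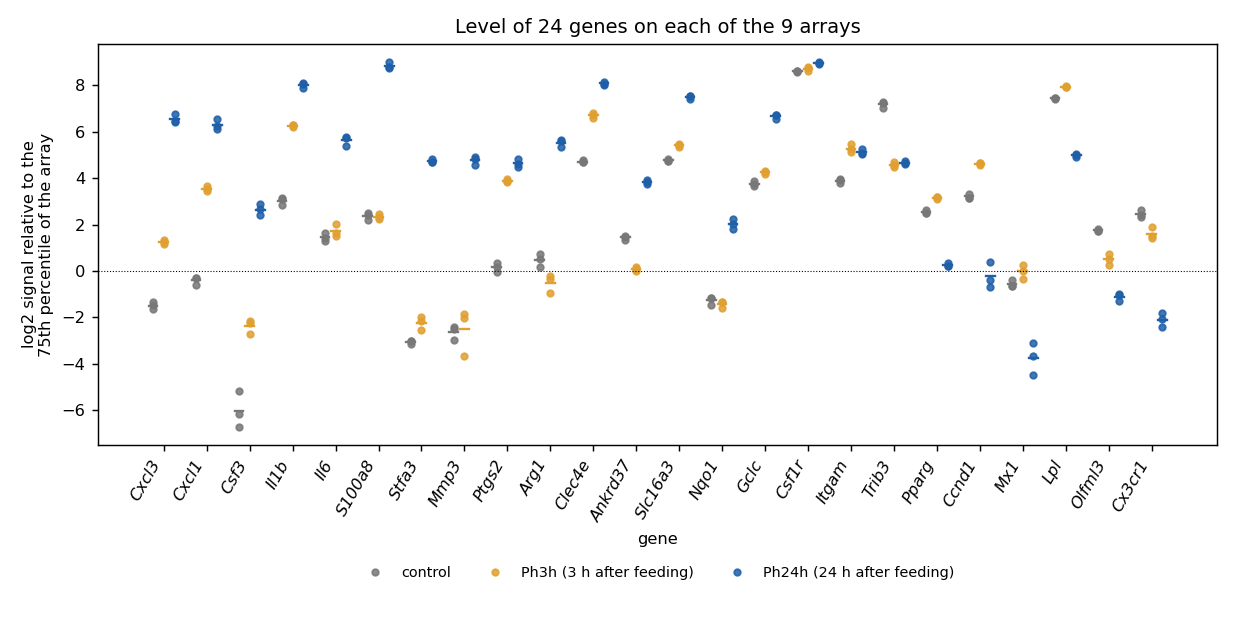
Log2 level of 24 genes relative to the 75th percentile of the array (vertical axis), 1 point per array and a bar at the mean of the 3 arrays, for control (grey), Ph3h (orange) and Ph24h (blue). S100a8 and Mmp3 are not called at 3 h and lie 6.46 and 7.40 above control at 24 h, while Cxcl3 and Il1b rise in steps. Lpl and Ccnd1 lie above control at 3 h and below it at 24 h.

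Some alarmins, a protease inhibitor and some matrix proteases rose. S100a8, a calcium-binding alarmin of myeloid cells, lay at 2.43, 2.51 and 2.22 in control and at 2.32, 2.45 and 2.24 at 3 h. At 24 h it reached 8.75, 8.99 and 8.78, and no Ph24h array came near the other 6. The rise was 87.8-fold, 6.46 on the log2 scale (standard error 0.11, adjusted p = 2e-08), against a difference of -0.05 at 3 h (adjusted p = 0.73). S100a9, its usual partner, was dim in control and rose by at least 2.50-fold (adjusted p = 5.7e-05). Stfa3, a stefin that inhibits cathepsins, went from -3.0, -3.02 and -3.14 to 4.69, 4.82 and 4.68, a rise of 7.78 (standard error 0.14, adjusted p = 3.3e-08). Of the 11 alarmins and granule proteins listed 7 rose and 3 fell, with a median of 1.65. Several are known from neutrophils. Of 7 neutrophil markers, a list that shares S100a8 and S100a9, 6 rose and 1 fell, and their summed signal was 97.8 to 119 in control and 754 to 840 at 24 h. Most of the control sum came from Csf3r, at a mean level of 6.49. Most of the 24 h sum came from S100a8 and Csf3r, at mean levels of 8.84 and 8.29. Ngp, another of the 7, was above background on no Ph24h array. The part of neutrophils in these rises was not tested. Among matrix proteases and their inhibitors 8 of 18 rose and 3 fell, with a median of 0.37 that turned to -0.13 under median scaling. Mmp3, or stromelysin 1, stood at -2.43, -2.98 and -2.50 in control, at -1.84, -2.02 and -3.65 at 3 h and at 4.57, 4.91 and 4.82 at 24 h. Its rise was 7.40 (standard error 0.45, adjusted p = 8.5e-06). Mmp10, or stromelysin 2, rose by 3.47 (adjusted p = 4.1e-07) after a fall of 0.58 at 3 h. The inhibitor Timp3 was dim at 24 h and fell by at least 2.72-fold (adjusted p = 0.018, and 0.058 without Ph24h replicate 3).

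Mmp3 and Mmp10, neighbours on chromosome 9, are shown with the 120 bases before their starts from RefSeq (GRCm38.p6) as a second pair of genes that rose together at 24 h. Capitals mark the AP-1 motif TGACTCA, here on the opposite strand. It begins 46 bases before the start of Mmp3 (chr9:7445702-7445821, plus strand) and 63 bases before that of Mmp10 (chr9:7502222-7502341, plus strand). On either strand, 3.46% of all promoters hold it within 250 bases. This pair was also picked after the motif search, and the part of the motif in the rises was not tested.
Mmp3: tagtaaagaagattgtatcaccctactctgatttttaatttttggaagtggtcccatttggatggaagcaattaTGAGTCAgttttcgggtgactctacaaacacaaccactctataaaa
Mmp10: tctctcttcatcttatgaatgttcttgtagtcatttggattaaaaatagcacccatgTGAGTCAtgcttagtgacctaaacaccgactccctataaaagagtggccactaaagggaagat

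Enzymes that make or remove mediators went both ways. Of 17 genes of arginine, nitric oxide and polyamine metabolism 8 rose and 7 fell, with a median of 0.059 that turned to -0.45 under median scaling, and of 19 genes of prostaglandins and leukotrienes 6 rose and 8 fell, with a median of -0.13. Arg1, the arginase that turns arginine into ornithine and urea, lay at 0.51, 0.73 and 0.17 in control, fell at 3 h and reached 5.35, 5.63 and 5.58 at 24 h. The Ph24h arrays lay more than 4 units above all others, a rise of 5.05 (standard error 0.22, adjusted p = 1.7e-06). Its mitochondrial relative Arg2 rose by 3.58 (adjusted p = 3.7e-07). Ptgs2, the cyclooxygenase COX-2 of prostaglandin synthesis, rose by 4.50 (adjusted p = 1.8e-07), and most of that rise, 3.75, was present at 3 h. Hpgd, which inactivates prostaglandins, went from 0.16, 0.14 and 0.13 to a dim level and fell by at least 15.1-fold (adjusted p = 1e-06), and its other probe fell by 5.12. Irg1, the enzyme that makes itaconate, rose by 2.50 (adjusted p = 8.2e-08). Among surface receptors, Clec4e, or Mincle, a lectin that senses damaged cells and mycobacterial lipid, went from 4.68, 4.78 and 4.69 to 8.02, 8.16 and 8.08, a rise of 3.37 (standard error 0.076, adjusted p = 8e-08). Cd14, the co-receptor for endotoxin, rose by 2.45, while Fcgr1, the high-affinity IgG receptor, fell by 2.63. In the list of Fc gamma, lectin and scavenger receptors 10 of 14 rose and 3 fell, with a median of 0.38 that turned to -0.13 under median scaling.

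**Figure D4:**
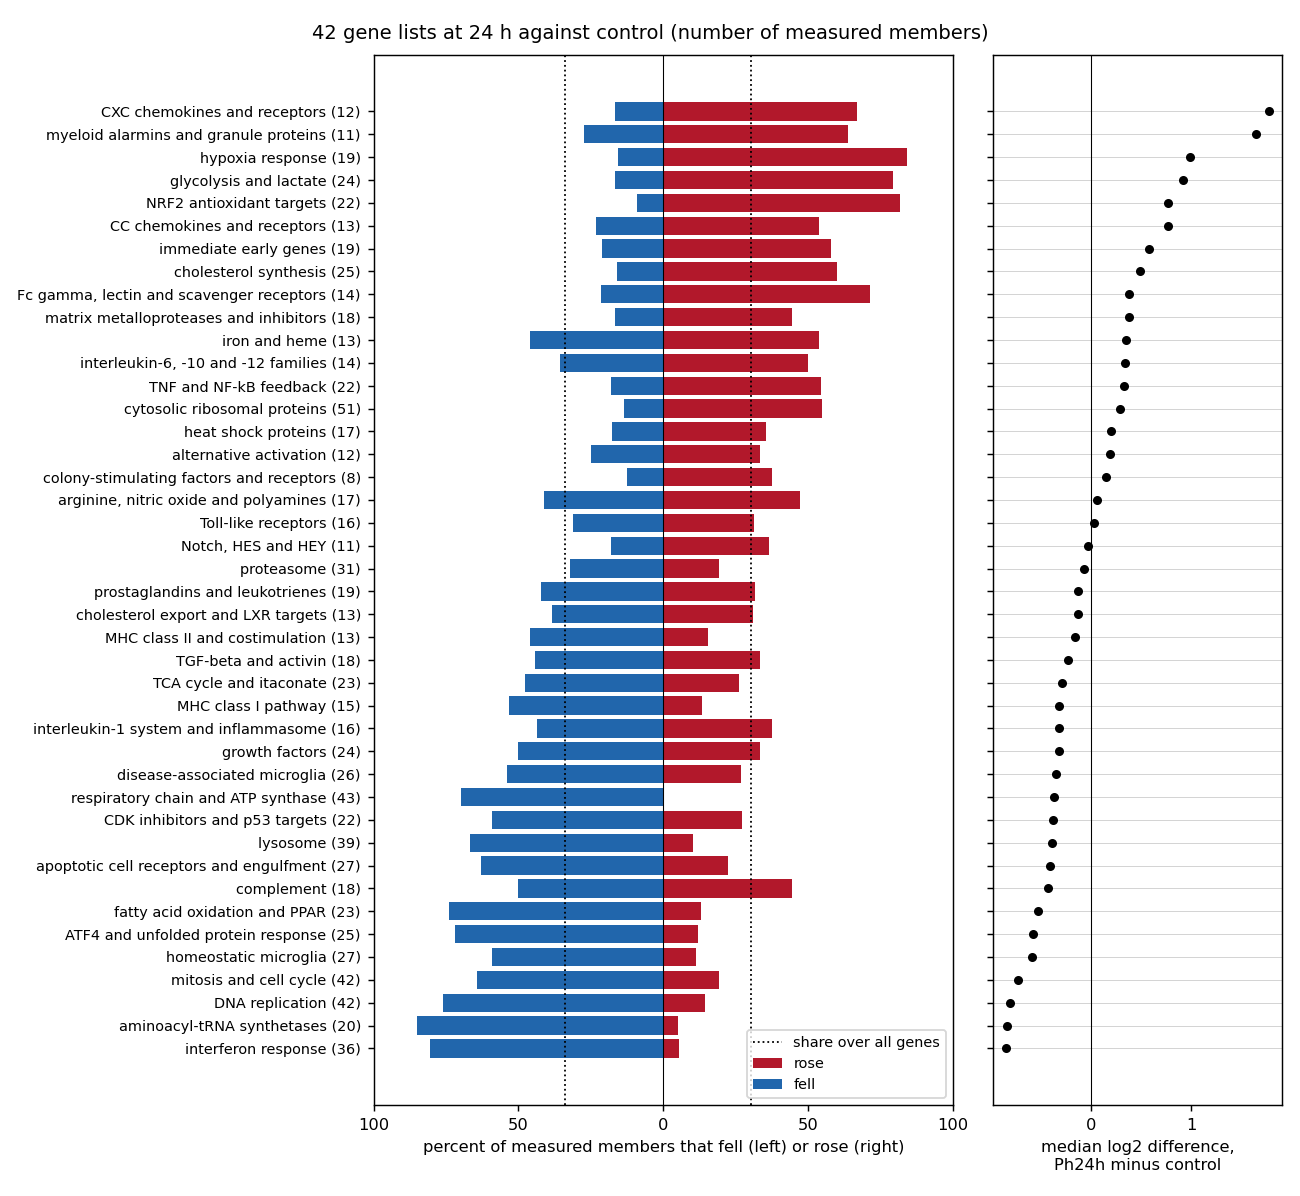
Gene lists at 24 h against control, ordered by their median (42 lists, number of measured members in brackets). Left, percent of measured members that rose (red) or fell (blue), with dotted lines at the shares over all genes (30.2% and 34.0%); right, median log2 difference of the members. The highest medians in this scaling are those of the CXC chemokines (1.78, and 0.26 with normexp and quantile normalization) and alarmins (1.65, and 0.93), and the lowest those of the interferon response (-0.85) and of aminoacyl-tRNA synthetases (-0.84).

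Genes of sugar metabolism, low oxygen and redox defence were higher in most members, and 16 of 24, 15 of 19 and 17 of 22 members lay above their own 3 h level. Of 24 genes of glycolysis and lactate transport 19 rose and 4 fell, with a median of 0.92 at 24 h and -0.030 at 3 h. Slc16a3, the lactate exporter MCT4, stood at 4.82, 4.75 and 4.72 in control and at 7.53, 7.53 and 7.40 at 24 h. The groups were far apart, with a rise of 2.72 (standard error 0.063, adjusted p = 8.5e-08) and of 2.81 on the other probe. Not all members followed. Slc2a3, the glucose transporter GLUT3, fell by 2.54 (adjusted p = 0.0003), with 1 of 3 Ph24h arrays above background. In the hypoxia list, of genes that HIF-1 is known to raise, 16 of 19 members rose and 3 fell, with a median of 0.99 at 24 h after -0.62 at 3 h. Ankrd37, an ankyrin repeat gene of this list, was at 1.52, 1.47 and 1.35 in control, 0.17, 0.02 and 0.10 at 3 h and 3.90, 3.86 and 3.76 at 24 h. The order of the 3 groups was without overlap, and the rise at 24 h was 2.40 (standard error 0.073, adjusted p = 3.1e-07). Ak4, a mitochondrial adenylate kinase, likewise lay 1.91 below control at 3 h. At 24 h it rose by 2.20 against control, and by 2.68 on its other probe.

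Of 22 antioxidant genes controlled by the factor NRF2, 18 rose and 2 fell, with a median of 0.77. Nqo1, a quinone reductase, lay at -1.15, -1.16 and -1.47 in control, at -1.34, -1.58 and -1.34 at 3 h and at 2.02, 2.23 and 1.81 at 24 h. It rose by 3.28 (standard error 0.14, adjusted p = 1.5e-06). Gclc, the catalytic subunit that limits glutathione synthesis, went from 3.88, 3.73 and 3.65 to 6.74, 6.71 and 6.56, a rise of 2.92 (standard error 0.082, adjusted p = 2.1e-07). Heph, a copper-dependent iron oxidase, rose by 2.95 and by 1.55 on its other probe.

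The respiratory chain and fat oxidation lists had medians below 0. Of 43 subunits of the respiratory chain and ATP synthase none rose and 30 fell, with a median of -0.37, and their median at 3 h had been -0.0082. The lowest of the list was Ndufs8, a subunit of complex I, which went from 3.34, 3.21 and 3.16 to 2.05, 2.09 and 1.93, a fall of 1.21 (standard error 0.070, adjusted p = 6.3e-06). Cox6a2, a cytochrome c oxidase subunit known from heart and skeletal muscle and not on that list, had a larger fall. It went from 4.79, 4.83 and 4.82 to 1.23, 1.20 and 1.31, and fell by 3.56 (standard error 0.098, adjusted p = 1.9e-07). Of 23 genes of the TCA cycle and itaconate 6 rose and 11 fell, with a median of -0.29, and Pcx, the pyruvate carboxylase that refills the cycle, rose by 1.21 (adjusted p = 1.1e-05). Of 23 genes of fatty acid oxidation and the PPAR receptors 17 fell and 3 rose, with a median of -0.53. Pparg, the lipid-sensing nuclear receptor PPAR gamma, lay at 2.65, 2.52 and 2.49 in control and 3.18, 3.08 and 3.19 at 3 h, then at 0.34, 0.23 and 0.23 at 24 h. It fell by 2.28 against control (standard error 0.068, adjusted p = 2.9e-07).

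Most genes that charge tRNAs, and most of the ATF4 list, fell. Of 20 aminoacyl-tRNA synthetases, which load amino acids onto tRNAs, 17 fell and 1 rose (Hars, by 0.82, and 0.31 with no call under median scaling), with a median of -0.84. Eprs, which charges glutamate and proline, fell by 1.59 (adjusted p = 5.9e-06). Wars fell by 1.62 on its brightest probe and differed by 0.56 the other way on another. Of 25 genes of the ATF4 pathway and the unfolded protein response 18 fell and 3 rose, with a median of -0.58. Among the rises were Pdia4, a chaperone of the endoplasmic reticulum, by 3.02 (adjusted p = 7.4e-08), and Slc3a2, a chain of amino acid transporters, by 0.47 (adjusted p = 0.0028), which was -0.034 with no call under median scaling. Trib3, a pseudokinase induced by ATF4, stood at 7.26, 7.02 and 7.30 in control, and at 4.49, 4.55 and 4.69 after 3 h. It lay at 4.72, 4.64 and 4.62 at 24 h, a fall of 2.53 against control (standard error 0.092, adjusted p = 7.3e-07), with a difference of 0.09 between 3 and 24 h (adjusted p = 0.49). Chac1, which breaks down glutathione, fell by 2.60. The genes of cholesterol synthesis were higher in 15 of 25 members and lower in 4, with a median of 0.48 that turned to -0.023 under median scaling. Ribosomal protein genes changed sign with the scaling. Of 51 members 28 rose and 7 fell, with a median of 0.29, and the lowest median over the alternatives was -0.27.

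**Figure D5:**
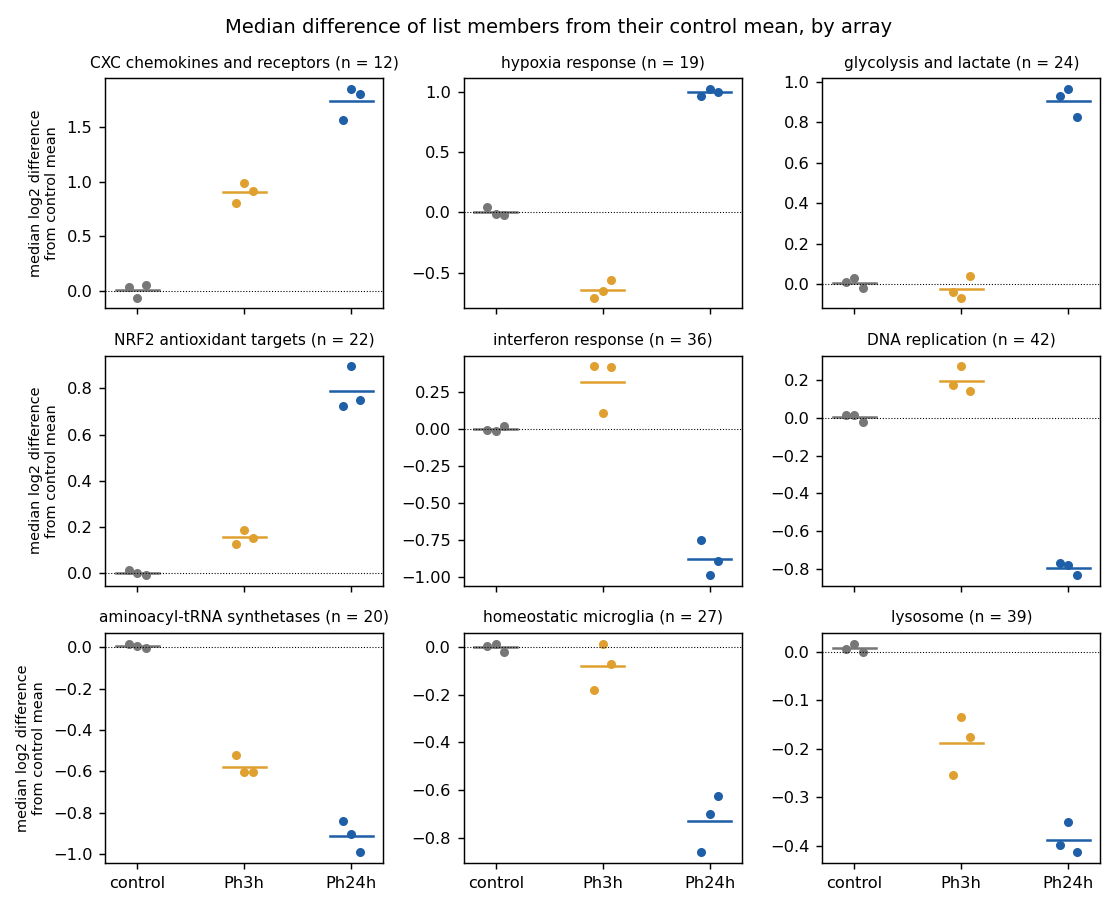
For 9 gene lists, the median over members of the log2 difference from each member's control mean (vertical axis), 1 point per array and a bar at the mean of the 3 arrays, in control, Ph3h and Ph24h. The hypoxia list lies between -0.71 and -0.56 at 3 h and between 0.96 and 1.02 at 24 h, and the interferon list between 0.11 and 0.42 at 3 h and between -0.99 and -0.75 at 24 h.

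Interferon-induced genes fell late. Of 36 measured members 29 fell and 2 rose, with a median of -0.85 at 24 h after 0.34 at 3 h, and in the direct comparison 32 of the 36 were lower at 24 h than at 3 h. In that comparison 20.9% of the 23,484 genes were higher and 24.3% lower. Ifit2, which binds viral RNA, was at 0.20, 0.21 and 0.17 in control and at -3.06, -2.87 and -2.01 at 24 h, a fall of 2.84 (standard error 0.25, adjusted p = 5.3e-05). Mx1, an antiviral GTPase, went from -0.65, -0.37 and -0.63 to -3.66, -4.47 and -3.11, a fall of 3.20 (standard error 0.33, adjusted p = 0.00012), with 2 of 3 Ph24h arrays above background. The guanylate-binding proteins Gbp11 and Gbp8 became dim and fell by at least 43.0-fold and 13.2-fold. Ifitm3, a membrane protein that blocks viral entry, was 1 of the 2 rises, by 0.56 (adjusted p = 0.0029), which was 0.05 and not called under median scaling. Tap1, the peptide pump of MHC class I loading, fell by 1.66, and of 15 genes of that pathway 8 fell and 2 rose.

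Genes of the cell cycle had medians above 0 at 3 h and below 0 at 24 h. Of 42 genes of DNA replication 32 fell and 6 rose, with a median of -0.81 after 0.17 at 3 h. Of 42 genes of mitosis 27 fell and 8 rose, with a median of -0.73 after 0.39. The largest rises of these lists were not shared by other probes. Foxm1 rose by 4.54 and Tk1 by 1.74, but another probe of each fell, by 0.75 and 2.89. Kif2c rose by 3.92, with -0.43 and no call on another probe, and Pold1, which rose by 1.46, had no other probe. Ccnd1, the cyclin D1 that starts the cycle, lay at 3.15, 3.33 and 3.16 in control, at 4.64, 4.68 and 4.58 at 3 h and at -0.71, -0.37 and 0.37 at 24 h. The Ph24h arrays lay at least 2 units below all others, with a fall of 3.45 against control (standard error 0.24, adjusted p = 1.7e-05). Ccna2, the cyclin A2 of S phase, fell by 3.20 (adjusted p = 2.1e-05) and was above background on 1 Ph24h array. Cdkn1c, the cell cycle inhibitor p57, fell as well, from 3.74, 3.71 and 3.56 to -0.006, -0.0039 and -0.12, by 3.71 (standard error 0.079, adjusted p = 6.4e-08).

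Top2a, the topoisomerase that untangles DNA before division, was at -0.09, -0.34 and -0.20 in control, at 0.65, 0.74 and 0.68 at 3 h and at -2.88, -2.55 and -2.56 at 24 h. It fell by 2.46 against control (standard error 0.11, adjusted p = 1.7e-06). Its promoter is shown from RefSeq because it is crowded with the CCAAT box, in capitals on either strand. The box occurs 6 times in the 250 bases before the start (chr11:99024190-99024439, minus strand, GRCm38.p6), a number that 0.0927% of all 11,871 promoters reach. At least 1 CCAAT box was found in 36.3% of them.
Top2a: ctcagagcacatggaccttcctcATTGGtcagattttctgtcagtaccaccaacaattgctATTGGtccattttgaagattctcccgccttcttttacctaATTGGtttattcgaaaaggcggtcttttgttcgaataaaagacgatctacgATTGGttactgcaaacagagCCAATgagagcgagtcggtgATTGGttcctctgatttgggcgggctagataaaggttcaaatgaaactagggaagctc

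Over whole groups of promoters, read 250 bases before to 50 bases after the start, the motifs were counted on either strand. The CCAAT box was found in 38.9% of 11,871 promoters, in 38.2% of 469 promoters of genes that rose at least 4-fold and in 48.8% of 129 promoters of genes that fell at least 4-fold. The AP-1 motif was found in 4.0%, 6.4% and 5.43% and ACGTG, the core that HIF binds, in 24.1%, 20.9% and 23.3%. These are shares of letters found and were not tested.

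Markers of nerve cells were among the largest rises. Of 52 measured markers of neuroblastoma and sympathetic neurons 38 rose and 4 fell, with a median of 2.96 (2.37 at bounds). Their summed signal was 52.0 to 53.2 on the control arrays, 1722 to 1846 at 3 h and 2596 to 2967 at 24 h, and 21 of the 53 tested were above background on no control array. Vgf, a secreted neuronal peptide precursor, went from -2.63, -2.05 and -2.78 to 11.21, 11.17 and 11.00, a rise of 13.61 (standard error 0.18, adjusted p = 7.6e-09), and Stmn2, a tubulin-binding protein of growing axons, rose by 11.12 (adjusted p = 8.9e-06), with 2 of 3 control arrays above background. Chga and Scg2, granins of secretory vesicles, and Hand2, a factor of sympathetic neurons, were dim in control and rose by at least 995-fold, 1152-fold and 547-fold. These rises were already large at 3 h. Vgf lay at 10.34, 10.48 and 10.39 then, and Hand2 at 4.48, 4.55 and 4.62 at 3 h and at 4.40, 4.27 and 4.30 at 24 h (difference between the times -0.23, adjusted p = 0.14). Vgf alone made up most of the summed signal of the markers at 3 h and at 24 h. Of the 52 measured markers 21 were called above their 3 h level at 24 h and 6 below it. SH-SY5Y cells are of this lineage, and the part of human RNA that binds to the mouse probes was not tested here. The paper reports that most array probes had low homology to human transcripts. It also reports degraded RNA and no new transcription in apoptotic SH-SY5Y cells. In its qPCR, Vgf was among the genes with the largest expression. Of 8 astrocyte markers 2 fell and none rose, with a summed signal of 6.58 to 7.78 in control and 4.60 to 4.92 at 24 h. Of 9 oligodendrocyte markers 3 rose and 4 fell.

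Some genes crossed the detection limit. Well above background on all 3 Ph24h arrays and on no control array were 368 genes, all called higher, of which 274 rose by a bound of at least 4-fold. The opposite was seen for 821 genes, of which 455 were called lower and 27 had a bound of that size. The lowest signal that counted as well above background was -5.01 to -4.59 on the control arrays and -3.84 to -3.70 on the Ph24h arrays, so a gene is lost more easily than gained. The 3382 genes named by the coordinates of long noncoding transcripts rose in 42.8% and fell in 10.9% of cases, and the other 20,102 rose in 28.1% and fell in 37.9%. The part of brightness in that gap was not tested.

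Compared with 3 h, the late state was further from control for many genes. Of the 7098 genes higher at 24 h than in control 2806 were also above their 3 h level, 521 were below it and 3771 were not called between the times. Of the 7988 lower genes 4191 were also below their 3 h level and 968 above it. Among rises of at least 4-fold, with dim genes at their bounds, 611 of 1023 lay above the 3 h level, and among such falls 166 of 200 lay below it. Over all 23,484 genes, 20.9% were higher at 24 h than at 3 h and 24.3% lower. The genes were chosen by their values on the same Ph24h arrays, which tilts these counts away from control, so they are a description. Other probes of a gene often gave no call or the opposite one. Another probe was called higher for 699 of 1344 rises of 1.5 to 4-fold (and lower for 179), for 131 of 251 rises of 4 to 16-fold (27) and for 57 of 99 larger rises (7). It was called lower for 857 of 1275 falls of 1.5 to 4-fold (and higher for 168) and for 49 of 68 falls of 4 to 16-fold (5).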

How the data were processed

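RNA from 3 control, 3 Ph3h and 3 Ph24h cultures had been labeled in one color and hybridized to mouse arrays. The authors deposited scanner output for each array (Agilent Feature Extraction 10.7.3.1), whose processed signal is a linear intensity, background-subtracted and not scaled between arrays. They also deposited log2 values from GeneSpring GX, centered for each probe. How these were scaled between arrays could not be learned from the sources, so they served as an alternative (slope 0.961, r = 0.978 over 32,401 probes against the scanner values, 24 h minus control).

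Control spots and outlier flags were left out, spots of a probe averaged, and log2 intensities set relative to each array's 75th percentile. Of 55,681 probes, 34,381 were well above background on at least 1 of 9 arrays and kept, and 56 were dropped for flags. A gene is its brightest kept probe, under the name in the files. Group means over 9 arrays were estimated with limma 3.58.1 (R 4.3.3, 6 residual degrees of freedom), a step tested on simulated data. Promoters came from RefSeq: 15,193 genes matched by accession and 12,098 had a promoter, of which the first listed was used.

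Named genes are the 15 largest rises and falls measured in both groups, the same among brighter genes outside the neuroblastoma list, the 8 largest bounds each way, up to 2 rises and 2 falls of each list, all among called genes without overlap between groups, and every microglia marker. The results of 2 genes under this rule are not reported here. The lists, this rule and the comparison were chosen with earlier results of these data known. Alternatives were quantile normalization, median scaling, normexp with an offset of 50, the deposited log2 table, other filters, the mean over probes, replicate and slide blocks, slide 1 alone, a variance trend, only the 2 groups, each array left out and the methods' regression on time. The number of arrays limits the precision.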

Additional observations from a re-analysis of the deposited data

Results flagged for a closer look

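Some genes were called in opposite directions against control at 3 h and at 24 h, with a call between the 2 times as well (limma, 3 arrays per group). Both differences from control use the same control arrays, and genes chosen this way differ between the times by that choice, so the values of 24 h minus 3 h below are a description.

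Lower than control at 3 h and higher at 24 h were Arg1, with 6.03 between the times, Ak4 with 4.11, Heph with 4.09, Mmp10 with 4.05, Ankrd37 with 3.75 and Pcx with 1.60. The opposite order, above control at 3 h and below it at 24 h, was found for the cell cycle genes Ccnd1 (-4.87), Ccna2 (-4.44) and Top2a (-3.36), the cytokines Cxcl10 (-3.82) and Il10 (-3.40), and the lipid genes Lpl (-2.96) and Pparg (-2.88). The microglia markers P2ry12 (-3.50), Aif1 (-2.09), C1qa (-1.68) and Fcrls (-1.64) and the complex I subunit Ndufs8 (-1.61) did the same. P2ry12 was dim at 24 h and Ccna2 and Il10 were above background on 1 of 3 arrays there, so their sizes depend on values near background.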

How the results depend on the processing

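With median scaling 3842 genes were called higher and 12260 lower, without a filter on dim probes 14754 were called higher, and with the methods' regression on time the counts were 3170 higher, 3341 lower and 4519 between 24 h and 3 h (10692 in the analysis reported). Counting a gene as detected on at least 2 of 3 arrays against at most 1 raised the genes detected in only 1 of control and 24 h from 1189 to 2797. All other alternatives kept these counts within 1.5 times. Leaving out 1 array gave 6397 to 7046 genes higher, 7233 to 7709 lower and 9451 to 9778 between the times, and the slide as a block gave 7202 and 7940 and slide 1 alone 6642 and 6724. Only genes above background in both groups, an alternative chosen after seeing the data, gave 6020 and 7359.

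The replicate block gave 6982 higher and 7787 lower, and 10062 between the times. Same-numbered control and Ph24h arrays correlated at 0.035, 0.0099 and 0.041 in their deviations, all under the 0.1 required here, so the samples were not treated as paired. For all 3 numbers the control array correlated best with the Ph24h array of its own number, a hint from the data that is too weak to settle whether numbers mark shared experiments.

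Csf1r turned to -0.15 under median scaling and to -0.0062 with normexp and quantile normalization, and Slc3a2 to -0.034 under median scaling. Signals near background limit the dim genes, and the cause of these changes was not tested.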
